A study of Mus musculus with 6 samples.

Results

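The T-box factor genes encode transcription factors that share a DNA-binding domain, the T-box, and 9 of them were examined for H3K4me1 in the mouse whisker pad at embryonic day 12. They were chosen by name out of the 21755 genes that code for protein on the autosomes and X. Of these, Tbx2, Tbx3, Tbx15, Tbx18 and Tbx22 were taken as members known from facial mesenchyme, Tbx4, Tbx5 and Tbx20 as members known for limb and heart, and Tbx1, a gene of the pharyngeal arches, was kept in neither set. Tbx2, Tbx3 and Tbx18 are also known from the heart and the limb, so that the 2 sets describe where a gene is best known and are not exclusive. A peak was counted for a gene when it overlapped the gene body extended by 5 kb on either side. It was also counted when it lay up to 100 kb away and the gene's start site was the nearest protein-coding start site. Start sites of transcripts annotated as incomplete at their 5' end were left out, a choice made after the peaks around Tbx2 were seen.

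CUT&Tag, in which an antibody guides a transposase to a chromatin mark so that the DNA around it can be sequenced, was carried out on 3 whisker pads with an antibody against H3K4me1 and with IgG under the same pad numbers. The pads came from wild-type mice of strain B6/J2 at E12 and were dissociated to single cells, and the IgG samples were not analysed here. Each peak list kept the strongest signal blocks of a pad, which were 16788 peaks in pad 1, 12969 in pad 2 and 13998 in pad 3, and a gene without a listed peak may still carry weaker signal. All libraries were sequenced to a common stated depth. Peak lists carry no read totals, so the depth obtained per library was not analysed here, and all comparisons were made relative to the list of the same pad.

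H3K4me1 marks enhancers, both active and poised, and the flanks of promoters, while the nucleosomes directly at an active start site tend to carry more highly methylated forms. The mark reports the state of chromatin and not the amount of RNA. T-box factors act in the patterning of mesenchyme and in organ identity, with Tbx4 and Tbx5 best known for hindlimb and forelimb, Tbx20 for the heart, and Tbx22 for the palate. Tbx2 and Tbx4, and likewise Tbx3 and Tbx5, lie as linked pairs that derive from an ancient duplication. The pads hold several cell types, and a smaller number of marked cells cannot be told apart from less mark per cell.

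The source names of the H3K4me1 samples of pads 2 and 3 give adult kidney, while all titles give whisker pad, and the titles were followed. Of 10 facial mesenchyme markers, 10, 10 and 9 had a peak over the gene body or its flanks in pads 1, 2 and 3. Of 10 adult kidney markers the numbers were 2, 2 and 1, and those with a peak were Aqp2 and Slc12a1. Heart muscle markers had a peak at 3, 3 and 0 of 10, markers of limb position at 2, 2 and 1 of 8, and markers of the surface epithelium at 6, 6 and 4 of 8. Over all protein-coding genes, 24.9%, 22.6% and 19.6% had such a peak.

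The sequences below are 200 bp of the mm10 plus strand around the highest pileup of regions that had a peak in all 3 pads. They are shown because each lies in the strongest such region of its gene, judged over the 3 pads together. The exception is Tbx3, for which the place where the pads coincided is shown. Each stretch was centred on the middle one of the positions of highest pileup in the 3 pads. That position need not be the strongest of them. Capitals mark the bases of highest pileup of any pad that fell in the stretch. They were read from the RefSeq sequence of GRCm38.p6, and none overlaps an annotated untranslated region.
Tbx2 upstream domain, chr11:85815620-85815819: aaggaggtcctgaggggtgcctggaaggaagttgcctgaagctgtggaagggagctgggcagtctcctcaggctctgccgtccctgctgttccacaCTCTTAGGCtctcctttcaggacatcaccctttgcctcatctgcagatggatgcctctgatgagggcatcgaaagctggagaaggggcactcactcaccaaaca
Tbx3 downstream of the gene, chr5:119687302-119687501: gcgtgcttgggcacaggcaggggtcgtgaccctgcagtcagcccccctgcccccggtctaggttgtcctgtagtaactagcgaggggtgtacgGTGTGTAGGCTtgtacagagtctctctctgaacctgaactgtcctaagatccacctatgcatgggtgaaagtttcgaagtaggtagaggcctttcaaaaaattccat
Tbx1 downstream of the gene, chr16:18555028-18555227: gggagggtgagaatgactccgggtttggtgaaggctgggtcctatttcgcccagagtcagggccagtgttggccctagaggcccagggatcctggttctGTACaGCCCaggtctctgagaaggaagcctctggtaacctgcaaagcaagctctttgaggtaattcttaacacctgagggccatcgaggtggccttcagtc
Tbx15 upstream of the gene, chr3:99234711-99234910: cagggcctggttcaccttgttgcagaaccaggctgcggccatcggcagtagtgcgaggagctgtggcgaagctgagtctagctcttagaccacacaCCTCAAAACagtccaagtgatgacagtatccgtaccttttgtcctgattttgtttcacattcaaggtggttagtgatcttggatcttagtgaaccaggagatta
Tbx18 upstream of the gene, chr9:87739644-87739843: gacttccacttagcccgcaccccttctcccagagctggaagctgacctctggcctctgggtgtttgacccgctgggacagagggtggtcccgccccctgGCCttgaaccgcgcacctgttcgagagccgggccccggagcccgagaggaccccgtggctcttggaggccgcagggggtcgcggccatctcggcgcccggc
Tbx4 end of the gene, chr11:85918454-85918653: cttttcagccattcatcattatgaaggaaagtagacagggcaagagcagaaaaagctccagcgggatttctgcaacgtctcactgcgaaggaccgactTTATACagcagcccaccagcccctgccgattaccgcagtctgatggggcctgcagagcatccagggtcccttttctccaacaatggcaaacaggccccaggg
Tbx5 downstream of the gene, chr5:119944681-119944880: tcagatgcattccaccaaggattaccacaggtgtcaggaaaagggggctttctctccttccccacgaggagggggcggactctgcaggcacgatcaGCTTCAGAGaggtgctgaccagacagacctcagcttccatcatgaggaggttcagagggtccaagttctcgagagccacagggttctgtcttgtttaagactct
In the Tbx2 and Tbx3 stretches the highest pileup of all 3 pads fell inside the 200 bp. In the Tbx1 stretch this held for pads 2 and 3, and in the Tbx15, Tbx18, Tbx4 and Tbx5 stretches for a single pad.

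To assess how much of each gene carried the mark, the share of the gene body and 5 kb flanks under peaks was measured. Tbx3, a repressor that acts in many embryonic signalling centres, was covered over 79.0%, 83.6% and 78.6% in pads 1, 2 and 3. Tbx2, its closest relative and also a repressor, was covered over 82.4%, 86.4% and 51.2%. Pad 3 was the lowest for Tbx2. By mean coverage over the pads, Tbx3 with 80.4% ± 2.77 (SD, n = 3) was 17th and Tbx2 with 73.3% ± 19.3 (SD, n = 3) was 33rd of the 21755 protein-coding genes. Coverage of at least 50% in all 3 pads was seen in 89 genes, or 0.409% of those tested, and among the members in Tbx2 and Tbx3 alone.

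Tbx1 followed with 30.5%, 67.7% and 27.0%. The gene was marked at its start site in all 3 pads, but pad 2 stood well above the others and the mean was 41.7% ± 22.6 (SD, n = 3). Tbx4 was covered over 22.3%, 24.9% and 7.97%, with pad 3 the lowest. Tbx15, which acts in dermal and skeletal mesenchyme, was covered over 2.36%, 0.686% and 12.8%, and here pad 3 was the highest. The low shares of Tbx15 stand over a gene body of 113.9 kb, whereas Tbx2 measures 9.40 kb and Tbx3 14.1 kb. Tbx18, a gene of mesenchyme and of mesothelial layers, was covered over 6.85%, 6.81% and 0%. Tbx5 was covered over 3.15% in pad 1 and had no peak within these limits in pads 2 and 3. Tbx20 and Tbx22 were without a peak in every pad.

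**Figure D1:**
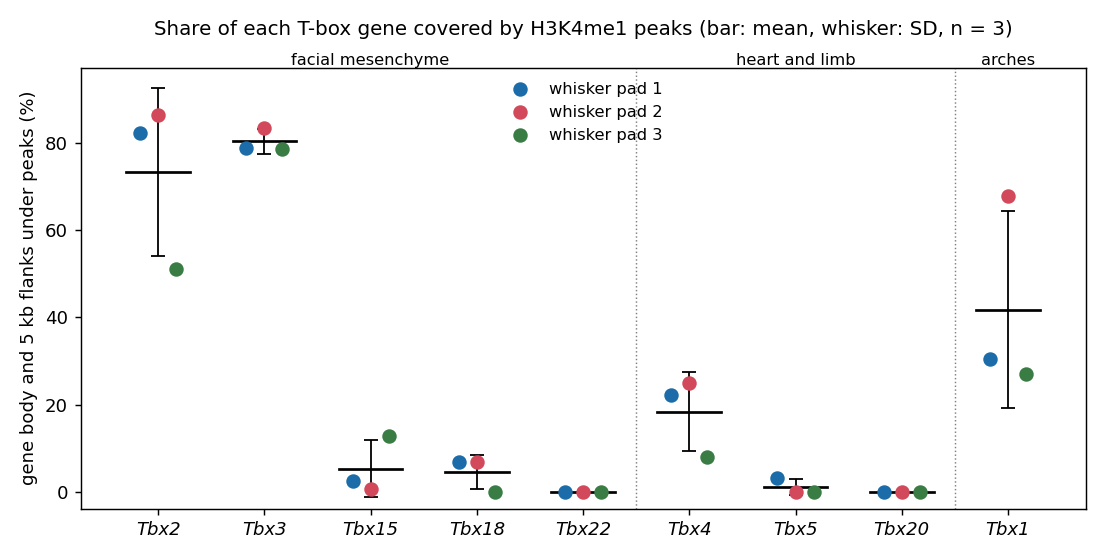
Share of the gene body and 5 kb flanks under H3K4me1 peaks, in percent, for the 9 T-box genes, with a point for each whisker pad, a line at the mean and whiskers of 1 SD (n = 3). Tbx2 and Tbx3 lie between 51.2% and 86.4% in all pads, the other facial mesenchyme genes at or under 12.8%, and Tbx20 and Tbx22 at 0.

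A peak over the gene body or its flanks was found for 7, 6 and 5 of the 9 genes in pads 1, 2 and 3. Over all protein-coding genes the share with such a peak was 24.9%, 22.6% and 19.6%, and 15.5% had one in all 3 pads. In all 3 pads it was found for Tbx1, Tbx2, Tbx3, Tbx4 and Tbx15, that is for 3 of the 5 facial mesenchyme genes, for 1 of the 3 heart and limb genes and for Tbx1. When distant peaks were added, the same number of genes, 7 of 9, had a peak in each pad, compared with 29.5%, 26.6% and 24.0% of all protein-coding genes by the same rule. Of 8 other T-box genes that are best known from other tissues (T, Eomes, Tbr1, Tbx6, Tbx10, Tbx19, Tbx21 and Mga), 2, 1 and 0 had a peak over the gene body or its flanks. These were Tbx6 and Tbx21 in pad 1, both among the weakest peaks of the list, and Eomes in pad 2.

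The 9 genes held 30, 24 and 25 peaks in pads 1, 2 and 3, of which 13, 14 and 12 lay over the gene or its flanks and 17, 10 and 13 were distant. Tbx2 accounted for 9, 8 and 8 of them and Tbx3 for 7, 5 and 6. The signal of a gene was then expressed as the total pileup of its peaks in percent of the total of the list. For Tbx2 it was 0.0818%, 0.0839% and 0.0613%, and for Tbx3 0.0685%, 0.0808% and 0.0726%. These shares equal 13.7, 10.9 and 8.59 average peaks for Tbx2, and 11.5, 10.5 and 10.2 average peaks for Tbx3. The difference between the means of Tbx2 and Tbx3, 0.0757% ± 0.0125 and 0.0740% ± 0.00624 (SD, n = 3), was smaller than the spread between pads. Together they held 76.0%, 74.5% and 74.4% of the signal of all 9 genes. When start sites of incomplete transcripts were included, the mean of Tbx2 was 0.0449% ± 0.0212 (SD, n = 3), while that of Tbx3 was unchanged.

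The other genes stood well under these values. Tbx1 held 0.0209%, 0.0287% and 0.0107% of the list signal, and its highest pad remained under the lowest pad of Tbx2 and of Tbx3. For Tbx2 this rested on leaving out the start sites of incomplete transcripts. When they were included, Tbx2 in pad 3 fell under the highest pad of Tbx1. Tbx15 held 0.00680%, 0.00321% and 0.0215%, so that pad 3 alone exceeded the sum of the others. Tbx4 held 0.00922%, 0.0133% and 0.00505%, Tbx18 0.00529%, 0.00747% and 0.00464%, and Tbx5 0.00512%, 0.00355% and 0.00433%. In the order of the means, Tbx1, Tbx15, Tbx4 and Tbx18 each overlapped with the next gene in their ranges over pads, the last with Tbx5. Tbx20 and Tbx22 held none.

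**Figure D2:**
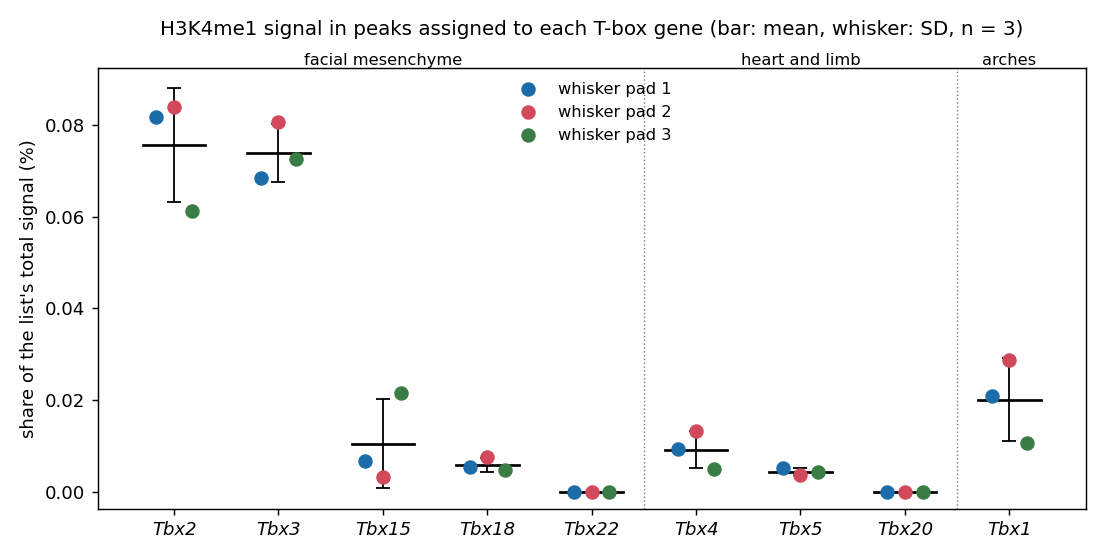
Signal of all peaks assigned to each T-box gene, in percent of the total signal of the peak list, with a point for each whisker pad, a line at the mean and whiskers of 1 SD (n = 3). Tbx2 and Tbx3 lie between 0.0613% and 0.0839%, and no other gene exceeds 0.0287% in any pad. Start sites of incomplete transcripts are left out. With them included, Tbx2 averages 0.0449% ± 0.0212 (SD, n = 3) and its separation from the other genes does not hold in every pad.

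To place these peaks, their position was measured from the start site in the direction of transcription. Tbx2 lay behind a broad domain at chr11:85810395-85833053, which covered 22.7 kb and reached the start site from upstream. In pads 1 and 2 it was a single peak from 21.9 and 20.2 kb upstream to 468 and 502 bp past the start site, at percentiles 99.2 and 98.9 of the list by total signal. In pad 3 it was split into a peak from 22.2 to 13.7 kb upstream and another from 8.44 kb to 392 bp upstream, at percentiles 89.4 and 90.1. The highest pileup of the domain lay at position 85815720 in pad 1 and 85815716 in pad 2, 16.8 kb upstream of Tbx2, in introns of Bcas3 and of the long non-coding RNA gene 2610027K06Rik. In pad 3 the highest pileup of the farther peak fell at the same place, and it is the stretch printed above for Tbx2.

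A second Tbx2 region, chr11:85834584-85847532, covered the later part of the gene and the sequence past its end. Its highest pileup lay at positions 85841347, 85841343 and 85841343 in the 3 pads, in an exon of Tbx2, a spread of 4 bp. Taking in each pad the peak with the larger total signal, a spread of at most 10 bp was found in 2 of the 17 gene regions shared by all pads, and in 6.70% of the 8917 such regions of the whole lists. Taking the peak with the larger maximum signal, a choice made after seeing the data, it was found in 3 of the 17 and in 6.96%, and the third was the upstream domain of Tbx2. Farther upstream, Tbx2 had 7, 5 and 6 distant peaks down to 99.9 kb from its start site. The count for pad 3 includes the farther piece of the split domain. All had their highest pileup in introns of Bcas3, a gene whose annotated 5' end lies 479 kb from the start site of Tbx2. Start sites of single Bcas3 transcripts were not measured for this distance. They were assigned to Tbx2 by distance only. When start sites of transcripts annotated as incomplete at their 5' end were included, none of these distant peaks was assigned to Tbx2 in any pad, and the list signal of Tbx2 was 0.0449% ± 0.0212 in place of 0.0757% ± 0.0125 (SD, n = 3).

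Tbx3 showed a similar layout. An upstream domain, chr5:119656284-119671122, extended from 7.62, 14.4 and 10.2 kb upstream to 428 and 453 bp past the start site in pads 1 and 2 and to 490 bp before it in pad 3, at percentiles 93.9, 96.0 and 95.7. A downstream domain, chr5:119674195-119691493, covered the later part of the gene up to 20.7, 20.8 and 20.6 kb past the start site. Its highest pileups coincided within 4 bp in the 3 pads, at position 119687402, in an intron of the antisense transcript Tbx3os2 and 16.7 kb past the start site of Tbx3. A further pair of regions, chr5:119608726-119617355 and chr5:119619022-119630425, lay between 61.9 and 40.2 kb upstream in introns of Tbx3os1 and was present in all 3 pads, with mean percentiles of 82.8 and 90.6. The reads carry no strand, so signal in the antisense genes and in Tbx3 cannot be separated.

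Between the upstream and downstream domains of Tbx3 the beginning of the gene was free of peaks. This interval measured 5058 bp in pad 1, 3425 bp in pad 2 and 4015 bp in pad 3, and the part common to all pads was chr5:119671123-119674194, from 454 to 3525 bp past the start site. A peak ending within 1 kb of the start site, followed by a peak-free interval of at least 500 bp and another peak starting within 6 kb, was found in all 3 pads for 21 genes, or 0.0965% of the protein-coding genes, with Tbx3 as the only member. These limits were not among the planned settings and lie close to the layout of Tbx3, so the share is no measure of how rare it is. Tbx2 met the same limits in pads 1 and 2, with intervals of 3030 and 1530 bp, while in pad 3 its next peak started 6.37 kb past the start site. In the interval of Tbx3, the CpG count was 0.647 of that expected from the base composition, compared with 0.344 in the part of the upstream peak common to all pads, at GC contents of 48.3% and 51.1%.

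**Figure D3:**
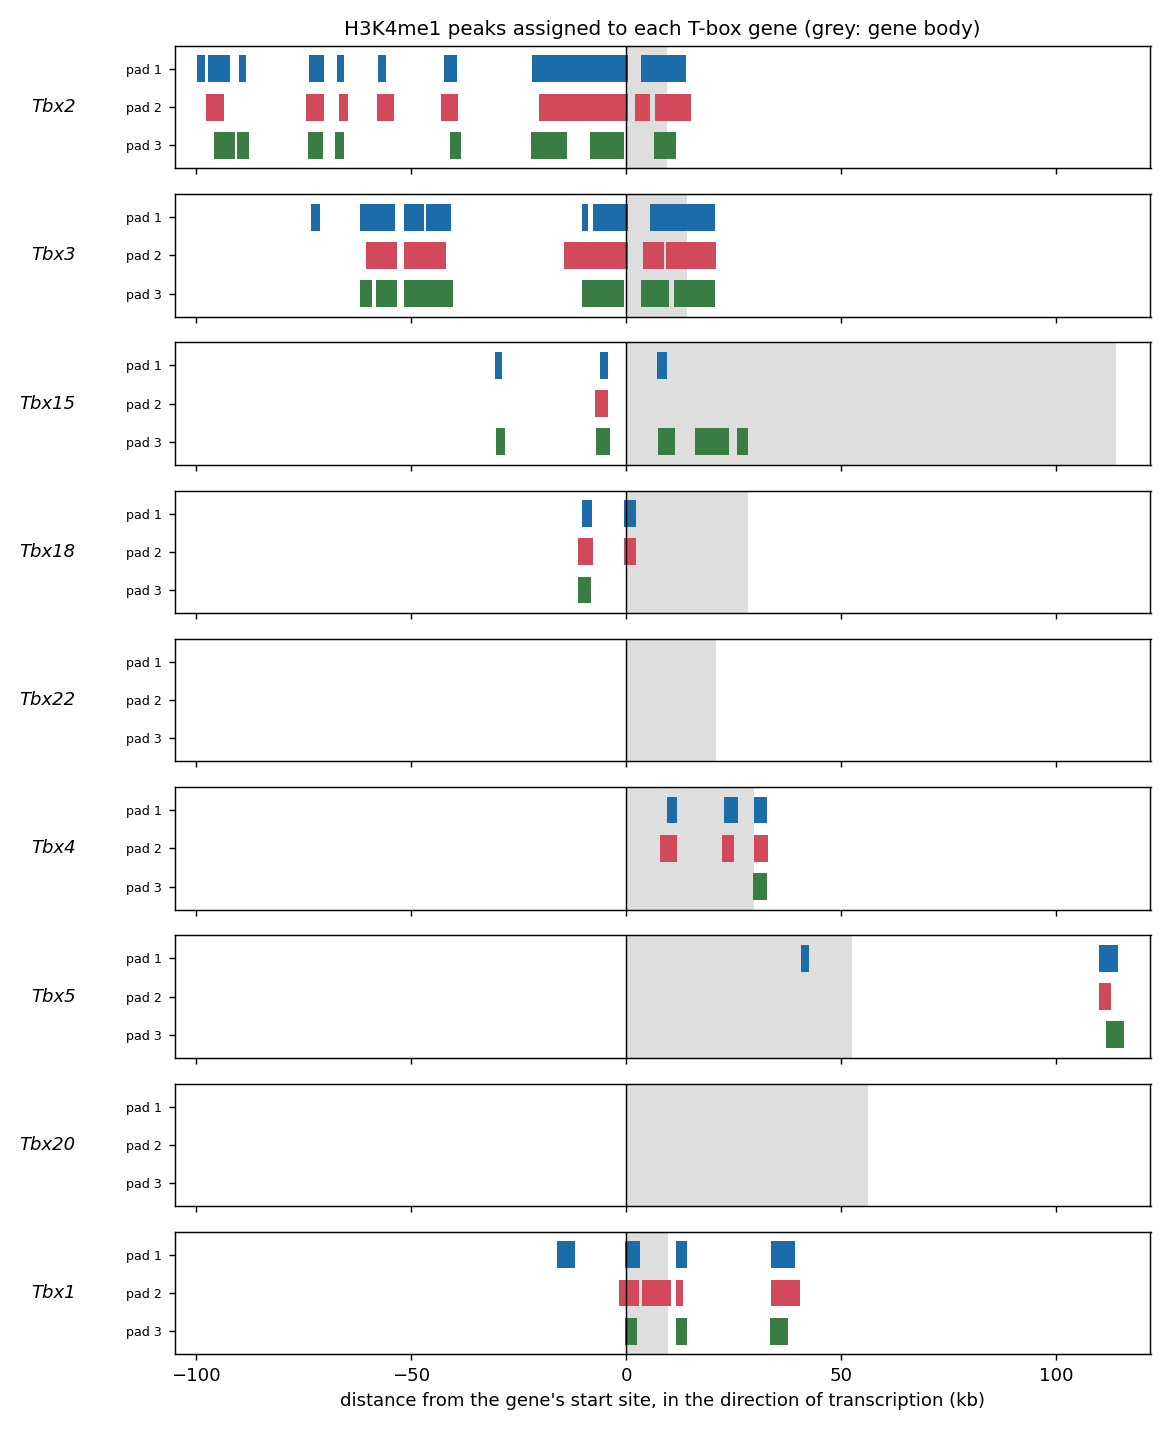
H3K4me1 peaks assigned to each T-box gene, plotted by distance from the start site in kb in the direction of transcription, with a row for each whisker pad and the gene body in grey. Tbx2 and Tbx3 show a broad domain on both sides of the start of the gene and further peaks upstream, Tbx5 has a shared peak only past its end, and Tbx20 and Tbx22 are empty.

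The linked partners of Tbx2 and Tbx3 differed from them. Tbx4, which starts 44.5 kb past the end of Tbx2, had peaks at 3, 3 and 1 places, all within the gene or at its end. The only region present in all pads was chr11:85916016-85919463, at percentiles 62.3, 64.5 and 53.8, with the highest pileup past the end of the gene. Its start site was not covered in any pad. The stretch before Tbx4 was free of peaks over 39.9, 38.9 and 42.2 kb.

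Tbx5 lies 147.9 kb past the end of Tbx3. In this interval a single peak was listed in each pad, the end of the downstream domain of Tbx3, which covered 4.48%, 4.58% and 4.44% of it. The following 141.3, 141.2 and 141.4 kb up to Tbx5 held no peak. Tbx5 itself had a weak peak inside the gene in pad 1, at percentile 3.73. Its only region shared by the pads was chr5:119942645-119948561, which began 110.1, 110.0 and 111.7 kb past the start site and at the closest 57.4 kb past the end of the gene, at percentiles 49.2, 33.9 and 44.9. This is the region shown above for Tbx5.

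Tbx15 had a single region in all pads, chr3:99233116-99236722, upstream of the gene, at percentiles 43.8, 25.9 and 51.4. The highest pileup of pad 2 lay 5.57 kb upstream of the start site, in an intron of Wars2. Over the 3 pads the highest pileups were spread over 1267 bp. Pad 1 had a weak peak inside the gene, from 7.2 to 9.4 kb past the start site, at percentile 3.62. Pad 3 had 3 further peaks inside the gene, and the first of them overlapped that of pad 1. Its strongest by total signal ran from 16.1 to 23.9 kb past the start site, at percentile 65.6, and was listed in neither of the other pads. By maximum signal this wide peak stood at percentile 5.92. Tbx18 likewise had a single region in all pads, chr9:87738882-87742519, upstream of the gene, at percentiles 52.3, 52.1 and 49.0. The highest pileup of pad 2 lay 8.48 kb upstream, in an exon of the transcript Gm37374. Over the 3 pads the highest pileups were spread over 2384 bp. The start site of Tbx18 was covered in pads 1 and 2 by weak peaks at percentiles 2.44 and 11.6, and not in pad 3.

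Tbx1 had 3 regions in all pads. The strongest of them, chr16:18550299-18557105, lay 35.5 kb past the start site in an intron of the neighbouring gene Gnb1l, at percentiles 86.4, 86.4 and 54.7. The region at the start site, chr16:18587557-18592443, was at percentiles 58.8, 73.6 and 4.58. In both, pad 3 was far under pads 1 and 2.

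Tbx20 and Tbx22 had no peak within 100 kb. The nearest peak to Tbx20 lay 437.4, 437.8 and 373.9 kb away, with Sept7 as the nearest start site in pads 1 and 2 and Herpud2 in pad 3. The nearest peak to Tbx22 lay 795, 1477 and 770 kb away. Having no peak over the gene or its flanks in any pad was the rule for most genes, with 71.2% of all protein-coding genes. Tbx22 lies on chromosome X, where the lists held 0.906, 0.637 and 0.859 peaks per Mb in pads 1, 2 and 3, compared with 6.75, 5.22 and 5.62 per Mb on the autosomes. Of the 948 protein-coding genes on X, 2.74% had a peak in all 3 pads. The part of the chromosome in the result for Tbx22 was not tested.

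The members also differed in base composition. With their flanks, Tbx1 and Tbx2 had a GC content of 56.0% and 56.2%, Tbx3, Tbx4 and Tbx5 of 50.4%, 50.2% and 48.0%, and Tbx15, Tbx18, Tbx20 and Tbx22 of 42.6%, 41.1%, 40.9% and 36.6%. Of all protein-coding genes with a GC content under 42%, 6.59% had a peak in all 3 pads, compared with 17.8% of those from 42% to under 50% and 24.5% of those of 50% and over. The part of base composition in the order of the members was not tested.

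To compare the 2 sets of genes, means over the genes of a set were taken in each pad. The covered share was 34.1%, 35.5% and 28.5% for the 5 facial mesenchyme genes and 8.48%, 8.31% and 2.66% for Tbx4, Tbx5 and Tbx20. The difference was 26.2 percentage points ± 0.836 (SD, n = 3). This SD is between pads and not between genes, and both sets were lowest in pad 3. The sets themselves varied by 3.70 and 3.31 points (SD, n = 3). Medians over the genes averaged 8.83% for the facial set and 1.05% for the other. The facial set also held 3.80 ± 0.529 peaks per gene compared with 1.22 ± 0.509, and 0.0332% ± 0.00164 of the list signal per gene compared with 0.00450% ± 0.00126 (SD, n = 3). The percentile of the strongest peak, set to 0 for a gene without a peak, averaged 57.6 ± 2.80 and 34.3 ± 2.50 (SD, n = 3). With a single tissue and genes that differ in length and surroundings, no test between the sets was made.

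These differences rested on Tbx2 and Tbx3. Tbx15, Tbx18 and Tbx22 were covered over 3.07%, 2.50% and 4.27% on average, and the heart and limb genes over 8.48%, 8.31% and 2.66%. Without Tbx2 and Tbx3, the difference in covered share was -3.20 percentage points ± 4.18 (SD, n = 3), which is within the spread between pads and in the other direction. The corresponding difference in list signal was 0.000929 percentage points ± 0.00408 (SD, n = 3) per gene, again within the spread. The facial mesenchyme set was made up of a pair with broad domains and of 3 genes with mean covered shares under that of Tbx4, 18.4%, although in pad 3 Tbx15 with 12.8% stood above Tbx4 with 7.97%.

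**Figure D4:**
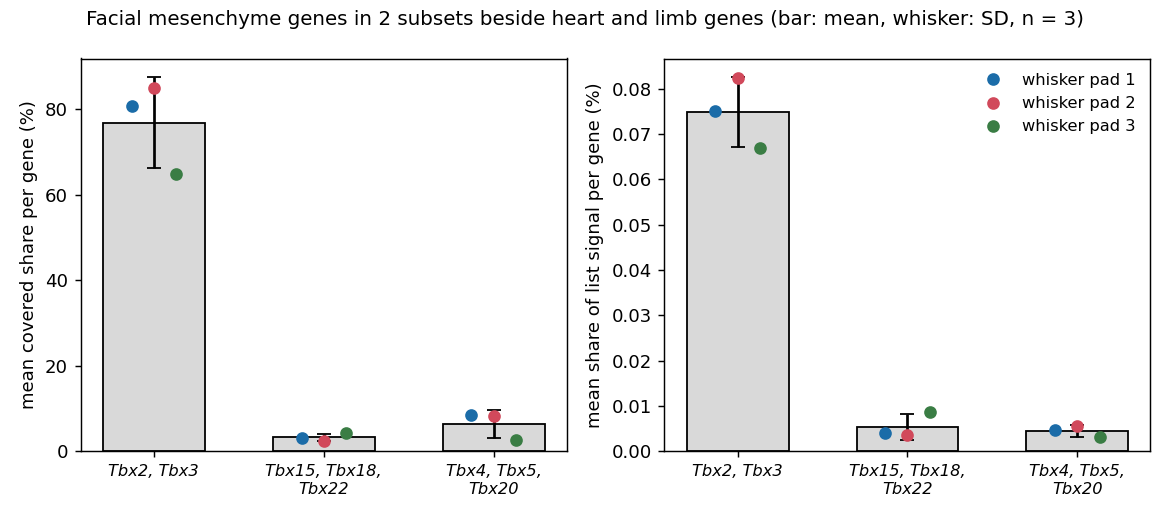
Mean covered share per gene (left) and mean share of the list signal per gene (right), both in percent, for Tbx2 and Tbx3, for the other facial mesenchyme genes and for the heart and limb genes, with bars at the mean, whiskers of 1 SD and a point for each whisker pad (n = 3). Tbx2 and Tbx3 average 76.8% and 0.0748%, while the other facial genes (3.28% and 0.00543%) and the heart and limb genes (6.48% and 0.00450%) lie close together.

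Joining the peaks of all pads gave 31 regions for the 9 genes. Of these, 17 (54.8%) had a peak in all 3 pads, 8 in 2 and 6 in a single pad, while 46.3% of all 19251 regions of the lists were found in all pads. The regions of the 9 genes did not keep the same relative signal in all pads. Of the 10 regions shared by all pads with a GC content over 50%, all 10 had a smaller share of the list signal in pad 3 than in pad 2, with a median log2 ratio of -0.30. Of the 7 with a GC content of 50% or less, 5 had a larger share in pad 3, with a median log2 ratio of 0.18. The extremes were the start site region of Tbx1, with a GC content of 59.6% and a log2 ratio of -1.52, and the Tbx2 region 95.1 kb upstream, with 45.6% and 1.08. Over all protein-coding genes, 1892, 1854 and 978 of those with a GC content of 50% and over had a peak in pads 1, 2 and 3. The numbers were 2895, 2552 and 2392 from 42% to under 50%, and 628, 517 and 886 under 42%. The shift of pad 3 was thus not particular to the 9 genes. The lower coverage of Tbx1, Tbx2 and Tbx4 and the higher coverage of Tbx15 in pad 3 stand beside these values, and the part of GC content in them was not tested.

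**Figure D5:**
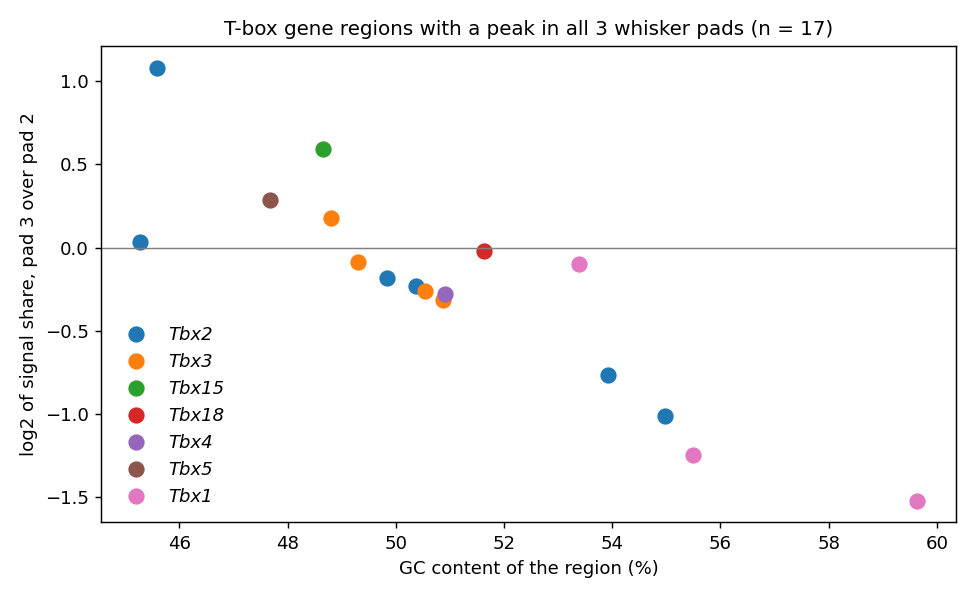
GC content in percent of the 17 T-box gene regions with a peak in all 3 whisker pads, against the log2 ratio of their share of the list signal in pad 3 to that in pad 2, with a point for each region coloured by gene. Points with a GC content over 50% lie under 0, from -0.02 to -1.52.

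To look for sequence features shared by the regions, 300 bp around the highest pileup were searched on both strands. The T-box binding motif AGGTGTGA was found in these windows in 0 of the 17 shared regions and in 1.53% of the 8916 shared regions searched on chromosomes 1 to 19 and X. Outside the windows it did occur in some of the 17, such as the upstream domains of Tbx2 and Tbx3, and not in others. The TCF/LEF core CTTTGAT, to which the mediators of Wnt signalling bind, was found in the windows of 2 of the 17 regions (11.8%) and of 3.96% of all. Over the whole length of the regions it occurred in most of the 17, and not in the upstream domain of Tbx2. For whole regions no share over all regions of the lists is given here. Neither motif contains the other. A match is a run of letters and was not shown to be a bound site.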

How the data were processed

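H3K4me1 was profiled by CUT&Tag in 3 whisker pads at E12. Peaks were called by the authors in each pad with SEACR in stringent mode without IgG, retaining the top fraction of blocks. The deposited lists give, for each peak, the total signal (summed pileup), the maximum signal and its position, without scaling to depth. The submitters' processing notes name Bowtie2 2.3, SAMtools 0.1.19, bedtools, SEACR 1.3 and mm10. The treatment of duplicate reads is not given in the sources used here.

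Peaks were matched to GENCODE M21 genes with Python 3.11.15, numpy 2.4.6 and pysam 0.24.0, and 0 peaks ended past a GRCm38 chromosome. Start sites (49505) came from protein-coding transcripts, leaving out those incomplete at the 5' end, a choice made after the peaks around Tbx2 were seen. The regions named were, for each gene, up to 3 with a peak in all pads, by mean percentile, and where there were none its other peaks. Further regions of Tbx2 and Tbx3, and single-pad peaks, were named after their values were seen. The genes and lists were chosen with earlier results of these data known. Values are given per pad or as mean ± SD over 3 pads, and whether pads came from separate litters is not stated. The functions recovered all 200 made-up genes of a simulation. Its genes stood far apart, so it did not test the choice between competing start sites. Alternatives were list strength, flank, distance, overlap, signal column, group membership and leaving out each pad.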

Additional observations from a re-analysis of the deposited data

How the results depend on the processing

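Of 80 recomputed values of the group results, 47 stayed within the spread between pads, or within 1.5 times for counts, 29 moved further and 4 changed sign. The sign changed where Tbx2, Tbx3 and Tbx18 were put in neither set (covered share -3.84 points, percentile -11.7) and, as an alternative added after seeing the data, where Tbx2 and Tbx3 were (-3.20 and -2.22). The same settings gave 0.278 and 0.333 peaks and 0.000745 and 0.000929 points of list signal per gene. With Tbx1 in the heart and limb set, 2 genes of that set had a peak in all pads, and the differences were 17.4 points covered, 0.0248 points of signal and 13.0 percentiles. Without Tbx22 (added later) they were 3.53 peaks, 34.4 points covered, 0.0370 points of signal and 37.8 percentiles. The stronger 50% of each list gave 0.0341 points of signal, 32.6 percentiles and 9 shared regions, and the strongest 10000 peaks gave 0.0313 points and 27.8 percentiles. Distant peaks up to 50 kb gave 1.64 peaks, 0.0228 points of signal and 37.1 percentiles. Covered share differed by 21.9 points without flanks and by 20.01 points with 20 kb. Maximum signal gave 0.0205 points and 28.1 percentiles. Including incomplete transcripts (added later) gave 1.38 peaks and 0.0225 points. Pad 1 alone, the pad without a kidney source name (added later), gave 2 heart and limb genes with a peak, 0.0277 points of signal and 30 regions.

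Of 144 values of single genes, 127 stayed within the spread between pads and 17 moved further, among them the list signal of Tbx5, which was 0 in the stronger 50% of each list, and the covered share of Tbx18, which was 0 in the stronger 50% and in the strongest 10000 peaks.

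Leaving out each pad gave 2.20 to 2.93 peaks, 25.7 to 26.5 points covered, 0.0283 to 0.0292 points of signal, 21.4 to 24.5 percentiles, 17 to 22 shared regions, 3 to 4 facial genes and 1 heart and limb gene with a peak in all remaining pads. No paired analysis was possible because IgG, which shares the pad numbers, was not analysed here, and H3K4me1 was compared with no second group. The depth obtained per library was not analysed here, and a gene without a peak may carry signal under the strength that each list retained.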
